A study of Mus musculus with 6 samples.

Results

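Cd38 and 9 further genes of NAD metabolism were followed in mouse bone marrow mesenchymal stem/stromal cells (BMSCs) treated with retinoic acid (RA). The genes were taken by name from the count tables and are Cd38, Bst1, Nampt, Naprt, Nmnat1, Nmnat3, Nadsyn1, Nadk, Sirt1 and Parp1, which is 10 of 25722 genes listed. Cd38 was chosen because of its difference between RA and DMSO in these same libraries, so its values are a description. No p-value is given for it, and nothing is read from its passing the threshold that is counted below. The other 9 were added for their roles, and all 10 passed the filter on low counts.

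The cells are labelled BM-MSCs of C57BL/6 mice. All of them were cultured at low oxygen in low-glucose DMEM with fetal bovine serum, antibiotics and a ROCK inhibitor. The DMSO group received the solvent alone and the RA group 1 µM all-trans RA (ATRA), each for 48 h and each with 3 libraries, while the methods section of the study describes a different RA concentration and time. The labels speak of 2 biological replicates although 3 libraries stand in each group, and nothing says that these came from separate mice or cultures, so p-values measure only the spread between libraries. In a chi-square comparison of counts, DMSO 1 and DMSO 3 were nearest to each other, at 4.56 per degree of freedom. DMSO 2 stood at 83.1 and 81.4 from these, and the RA libraries at 28, 76.9 and 80.3 from each other. Whether DMSO 1 and DMSO 3 share a culture was not tested, so n = 3 counts libraries. The age of the mice was not used here.

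NAD is the coenzyme that carries electrons in most redox reactions, and it is also consumed by enzymes that cleave it. Mammalian cells make it from tryptophan, from nicotinic acid, or by salvage of nicotinamide, the product that NAD-cleaving enzymes release. CD38 is a membrane enzyme that cleaves NAD mostly to ADP-ribose and, to a lesser extent, cyclic ADP-ribose, which releases calcium from internal stores. It is a surface marker of lymphocytes and activated immune cells, it is a major consumer of NAD in mouse tissues, and it is a known retinoid-responsive gene in myeloid leukaemia cells.

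The libraries held between 14737636 and 18511905 counts, and 13842 genes were tested. Cyp26b1, which encodes a retinoic acid-degrading enzyme and serves as a check of the treatment, was at 4.97, 5.96 and 4.68 CPM (counts relative to a TMM-scaled library total) in the DMSO libraries and at 124, 110 and 87.1 CPM in the RA libraries (log2 fold change 4.35, adjusted p = 0.00207 by edgeR's quasi-likelihood test). Of the other retinoid genes used as a check, Rarb, a retinoic acid receptor, and Cyp26a1 had log2 fold changes of 3.90 (adjusted p = 0.156) and 4.03 (adjusted p = 0.294), and Dhrs3, a retinaldehyde reductase, had 0.32 (adjusted p = 0.799). None of these 3 passed that test, while in DESeq2 Rarb (adjusted p = 1.46e-09) and Cyp26a1 (0.000571) did and Dhrs3 (0.911) did not. In a fit that adds the library sets described next as a covariate, Rarb (adjusted p = 0.00387), Cyp26a1 (0.0114) and Dhrs3 (0.0442) all had an adjusted p below 0.05. The largest differences between libraries did not follow treatment. Over the 1000 genes that varied most, DMSO 2, RA 1 and RA 2 (called library set 1 here) fell apart from DMSO 1, DMSO 3 and RA 3 (library set 2) on principal component 1, which held 57.2% of the variance. The sets are not a labelled batch, and values within each set are given below where they bear on a gene.

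The label of the cells was compared with marker genes. The summed level of 11 stromal markers was 1989 to 3905 CPM in DMSO libraries and 1525 to 3016 CPM in RA libraries. In contrast, 14 macrophage markers, among them Adgre1, Lyz2, Csf1r and Ptprc, summed to 19900 to 22070 CPM in DMSO and 20110 to 20820 CPM in RA libraries. The stromal marker Thy1 fell below the filter. Markers of T and NK cells reached at most 1 count in any library, and those of B and plasma cells (B cells of the mouse carry CD38) summed to 0.532 to 5.04 CPM in DMSO and 0.445 to 5.66 CPM in RA. The plasma cell marker Mzb1 and the T and NK markers Cd3g, Nkg7 and Ncr1 were not analysed here. Neutrophil markers, of which Ly6g, Mpo and Elane were not analysed, summed to 3.03 to 4.41 CPM and 3.30 to 3.95 CPM, and endothelial markers to 6.65 to 16.0 CPM and 9.78 to 16.9 CPM. The libraries thus held high levels of macrophage genes beside stromal genes, and the cell type that a transcript came from cannot be told. In bulk samples such as these, more cells of a type and more RNA per cell cannot be told apart.

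Cd38 (ENSMUSG00000029084) lies on chromosome 5 at 43868553 to 43912375 of GRCm38, on the plus strand. It had 118, 151 and 145 counts in the DMSO libraries, which is 8.26, 8.03 and 9.97 CPM. In the RA libraries it had 838, 849 and 596 counts, or 46.6, 53.8 and 40.7 CPM. All 3 RA libraries lay above all 3 DMSO libraries, and the lowest RA library was 4.08-fold above the highest DMSO library. The mean was 8.76 ± 1.06 CPM in DMSO and 47.0 ± 6.60 CPM in RA (SD, n = 3 each), a log2 fold change of 2.43 (SE 0.17). Among 13842 genes Cd38 ranked 37 by fold.

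The difference in Cd38 was present in both library sets. In set 1 the mean log2 CPM of RA 1 and RA 2 was 2.62 above DMSO 2, and in set 2 RA 3 was 2.15 above the mean of DMSO 1 and DMSO 3. Of the 14 macrophage markers 0 passed the test, where 0.0433% of all tested genes were called, so this count says little. Their median log2 fold change was -0.12, and 5 of them had a higher mean in RA. In the fit with the library set the median was -0.018, with 6 positive and 8 negative. Of the B and plasma cell markers, Cd79b passed the filter, at 2.77 ± 2.31 CPM in DMSO and 2.27 ± 2.74 CPM in RA (SD, n = 3), and Cd79a, Ms4a1, Pax5 and Jchain had at most 2 counts. Cd79b was lower in all 3 libraries of set 1, and within the sets its difference was positive, 0.52 in set 1 and 0.48 in set 2 on the log2 scale. Its part in the Cd38 level was not tested. Of the 10 stromal markers tested 0 passed the test, against the same share of all genes. Their median log2 fold change was 0.13, and 6 of them had a higher mean in RA. In the fit with the library set 5 were positive and 5 negative, with a median of -0.019. The highest log2 fold change among them (3.35) was that of the leptin receptor Lepr, named after its values were seen, with values from 0.48 to 0.49 CPM in DMSO and of 2.50, 3.04 and 9.48 CPM in RA. It had an adjusted p of 0.292 in edgeR's quasi-likelihood test, 0.000142 in DESeq2 and 0.00644 in the fit with the library set. Col1a1 and Col1a2, the type I collagen chains, also named after their values were seen, had log2 fold changes of -0.58 and -0.56, and of -0.91 and -0.85 in the fit with the library set. Whether stromal cells contribute to the Cd38 level was not tested.

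Bst1 (ENSMUSG00000029082), or CD157, is the paralog of Cd38 and encodes a GPI-anchored ectoenzyme of the same ADP-ribosyl cyclase family. It lies upstream of Cd38 on the same strand, at chromosome 5, 43818885 to 43843986, with a gap of 24.6 kb between the 2 genes. Bst1 stood at 7.84, 4.73 and 10.2 CPM in DMSO and at 9.95, 8.81 and 7.37 CPM in RA libraries. The groups overlapped, and the log2 fold change was 0.20 (95% interval -0.52 to 0.93, adjusted p = 0.867). The direction differed by library set, with 0.97 in set 1 and -0.27 in set 2, and the log2 fold change was -0.033 without DMSO 2. Exons of Bst1 overlap those of Fbxl5 on the opposite strand, and the strand setting of the counting is not given in the sources used here, so a part of the Bst1 counts may belong to Fbxl5.

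Scaled by exon length, the paralogs had overlapping levels in DMSO libraries, with 2.25 ± 0.272 RPKM (CPM per kilobase of exon, SD, n = 3) for Cd38 and 2.29 ± 0.823 RPKM for Bst1. The ratio of Cd38 to Bst1 per length was 0.898, 1.45 and 0.835 in the DMSO libraries and 3.99, 5.21 and 4.71 in the RA libraries. The ratio was therefore higher in every RA library, and since it contains the Cd38 values that chose the gene, it is a description only.

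**Figure D1:**
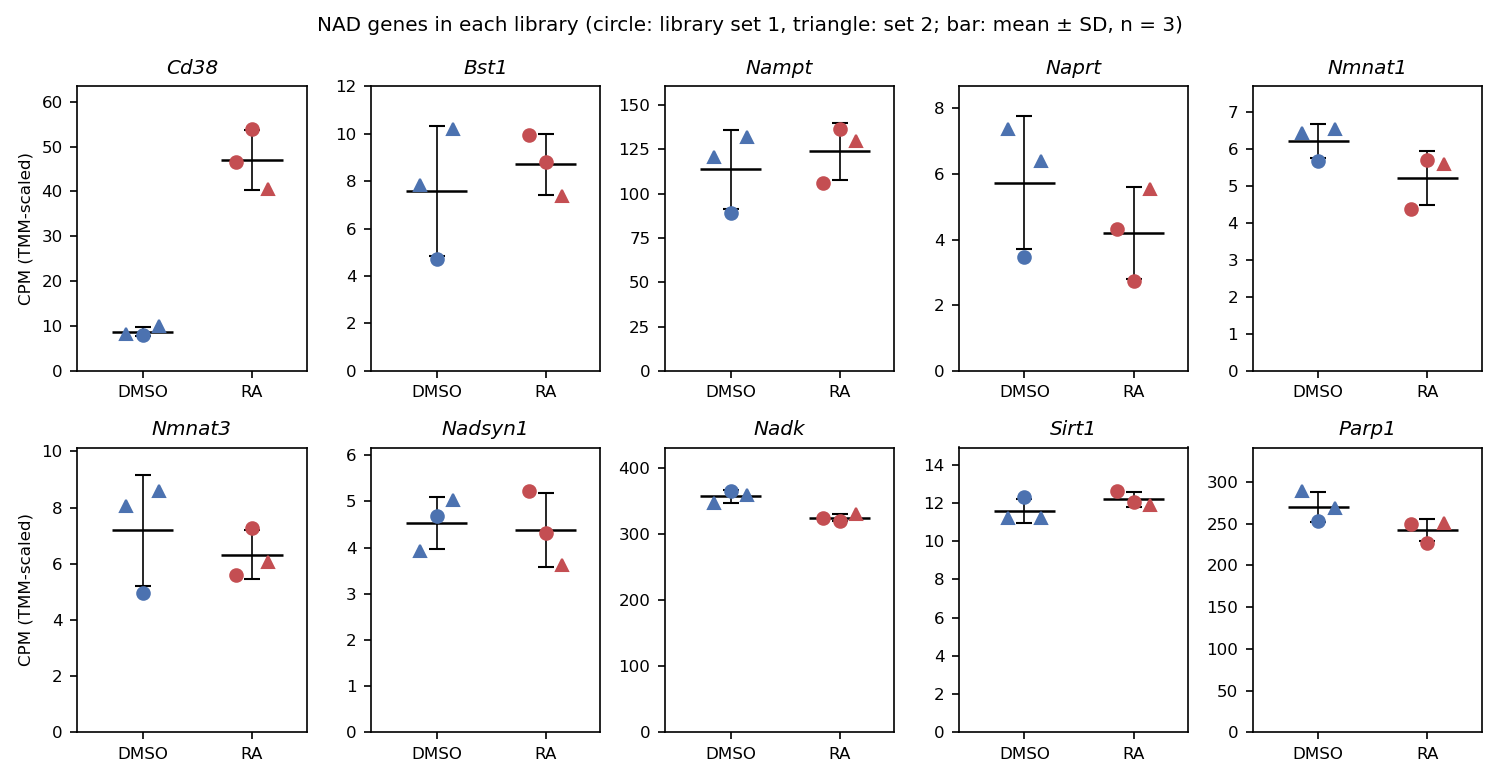
Level of each of the 10 NAD genes in every library, in TMM-scaled CPM (y axis from 0, with a scale of its own for each gene), for DMSO (blue) and RA (red). Points are libraries (circles set 1, triangles set 2) and bars are the mean ± SD of 3 libraries. For Cd38 the RA libraries sit between 40.7 and 53.8 CPM and the DMSO libraries between 8.03 and 9.97 CPM, while 7 of the other 9 genes overlap between groups.

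Nampt encodes the rate-limiting enzyme of nicotinamide salvage, which remakes NAD from the nicotinamide that CD38, sirtuins and PARPs release. Nampt was at 120, 88.9 and 132 CPM in DMSO and at 106, 136 and 130 CPM in RA libraries (ENSMUSG00000020572, log2 fold change 0.13, 95% interval -0.31 to 0.56, adjusted p = 0.865). The lowest value of all was DMSO 2, without which the log2 fold change was -0.009, and the groups overlapped.

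Naprt starts NAD synthesis from nicotinic acid. It was at 7.35, 3.46 and 6.39 CPM in DMSO and 4.34, 2.73 and 5.53 CPM in RA libraries (ENSMUSG00000022574, log2 fold change -0.45, 95% interval -1.35 to 0.45, adjusted p = 0.803). Its 3 set 1 libraries all lay below its 3 set 2 libraries, and within the sets the difference was -0.006 and -0.31 on the log2 scale. Naprt shares exon sequence with Eef1d on the same strand, so its counts are uncertain. Leaving out a library moved its log2 fold change to between -0.70 (without DMSO 2) and -0.21 (without RA 2).

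Nmnat1 and Nmnat3 encode the nuclear and the mitochondrial form of the enzyme that turns mononucleotides into NAD or its precursor. Nmnat1 was at 6.44, 5.69 and 6.53 CPM in DMSO and 4.39, 5.71 and 5.59 CPM in RA libraries (ENSMUSG00000028992, log2 fold change -0.25, 95% interval -0.72 to 0.22, adjusted p = 0.803). Nmnat3 was at 8.05, 4.95 and 8.60 CPM in DMSO and 5.61, 7.29 and 6.07 CPM in RA libraries (ENSMUSG00000032456, log2 fold change -0.18, 95% interval -0.81 to 0.44, adjusted p = 0.862). Both genes overlapped between groups. The difference of Nmnat1 was negative in both sets (-0.18 and -0.21), while that of Nmnat3 was 0.36 in set 1 and -0.45 in set 2. Leaving out a library moved the log2 fold change of Nmnat3 to between -0.38 (without DMSO 2) and -0.038 (without DMSO 3), and that of Nmnat1 to between -0.32 (without RA 2) and -0.12 (without RA 1).

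Nadsyn1 encodes NAD synthetase, the last step from tryptophan and from nicotinic acid. It had 53 to 94 counts per library, at 3.92, 4.68 and 5.02 CPM in DMSO and 5.23, 4.31 and 3.62 CPM in RA libraries (ENSMUSG00000031090, log2 fold change -0.05, 95% interval -0.59 to 0.49, adjusted p = 0.961). The values of the groups were interleaved, and the log2 fold change was 0.026 without DMSO 3 and 0.070 without RA 3.

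Nadk encodes the cytosolic NAD kinase, which makes NADP. It was the most abundant of the 10 per length, and stood at 347, 366 and 360 CPM in DMSO and 324, 321 and 331 CPM in RA libraries. All 3 RA libraries lay below all 3 DMSO libraries, at a mean of 325.2 ± 4.97 against 357.5 ± 9.57 CPM (SD, n = 3). The log2 fold change of -0.14 did not pass the test (ENSMUSG00000029063, 95% interval -0.38 to 0.11, adjusted p = 0.803), and it was -0.18 in set 1 and -0.10 in set 2.

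Sirt1 encodes a nuclear deacylase that splits NAD in each reaction, and Parp1 the main poly(ADP-ribose) polymerase, which spends NAD at DNA breaks. Sirt1 was at 11.2, 12.3 and 11.2 CPM in DMSO and 12.6, 12.1 and 11.9 CPM in RA libraries (ENSMUSG00000020063, log2 fold change 0.07, 95% interval -0.27 to 0.41, adjusted p = 0.902). Its set 1 libraries were all above its set 2 libraries, although RA 2 and RA 3 stood close together at 12.05 and 11.87 CPM. Exons of Sirt1 overlap the antisense gene Gm16145. Without DMSO 2 its log2 fold change was 0.13. Parp1 was at 289, 254 and 269 CPM in DMSO and 250, 227 and 250 CPM in RA libraries (ENSMUSG00000026496, log2 fold change -0.16, 95% interval -0.43 to 0.11, adjusted p = 0.799). As with Nadk, every RA library of Parp1 lay below every DMSO library, although the nearest pair, DMSO 2 and RA 3, stood close together at 253.6 and 250.3 CPM. With scaling by library size alone, neither Nadk nor Parp1 was any longer apart between groups.

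Counted together, 1 of the 10 genes was called higher after RA at an adjusted p under 0.05 and at least 1.5-fold, namely Cd38, and 0 were called lower, where 0.0433% of all tested genes were called (0.0361% higher and 0.00722% lower). Since Cd38 was chosen from this comparison, nothing is read from that count. The call fell from 1 to 0 when any library other than RA 3 was left out. Of the other 9 genes, 0 were called in edgeR and 0 had an unadjusted p under 0.05, which 5.25% of all tested genes had, and 0 of the 9 were called in DESeq2, which called 0.983% of all tested genes. Of those 9 genes, 3 had a positive and 6 a negative log2 fold change, with a median of -0.14 and a range of -0.45 to 0.20, beside a median of -0.018 over all tested genes. In size the 9 had a median absolute log2 fold change of 0.157, beside 0.192 for all genes. The groups did not overlap for 2 of the 9 (Nadk and Parp1, both lower in RA). Of all genes, 12.6% did not overlap (5.71% higher and 6.87% lower in RA). Cd38 makes this 3 of the 10, but its place came with its choice. The direction was the same in both library sets for 6 of the 9, and the share over all genes was not counted.

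The order of levels per length changed at Cd38, and also among low genes whose ranges overlapped. In DMSO libraries Nadk was highest at 95.4 ± 2.55 RPKM, followed by Parp1 at 51.1 ± 3.37 and Nampt at 22.5 ± 4.39 RPKM (SD, n = 3). These 3 were apart from each other in every library. Naprt, Bst1, Cd38, Sirt1 and Nmnat1 followed between 2.45 and 2.05 RPKM, and the ranges of neighbours in that order overlapped. Nmnat3 at 1.44 and Nadsyn1 at 1.37 RPKM overlapped with each other and lay below Nmnat1 in every library. In RA libraries Nadk (86.8 RPKM), Parp1 (45.8 RPKM) and Nampt (24.5 RPKM) kept their places, and Cd38 was at 12.1 ± 1.70 RPKM, below Nampt and above Bst1 (2.63 RPKM) with no overlap on either side. Below Cd38 the order was Bst1, Sirt1, Naprt, Nmnat1, Nadsyn1 and Nmnat3, and each of these overlapped with the next.

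**Figure D2:**
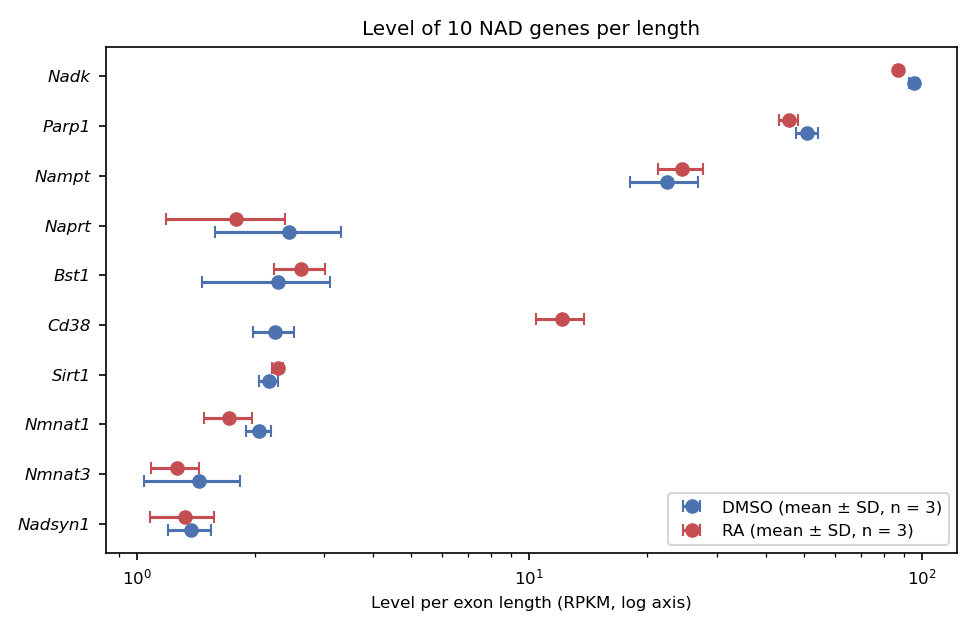
Level per exon length (x axis, RPKM, log scale) of the 10 NAD genes (y axis) in DMSO (blue) and RA (red). Points are the mean and bars the SD of 3 libraries, and genes are ordered by their DMSO level. Cd38 stands with 6 other low genes in DMSO, at 2.25 RPKM, and apart from them in RA, at 12.1 RPKM.

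Beyond the 10 genes, 56 genes of NAD synthesis, transport, breakdown and use, and of calcium release by the products of CD38, were taken by role. Of these, 55 were listed, 38 passed the filter, and 0 were called higher and 0 lower by edgeR, beside 0.0433% of all tested genes. An unadjusted p under 0.05 was found for 1, beside 5.25% of all tested genes. The calls under other tests are given with Slc25a51 below. The log2 fold change was positive for 16 and negative for 22 of the 38, with a median of -0.023 and a range of -0.82 to 0.93. With the library set as a covariate, 21 were positive and 17 negative, with a median of 0.011. The groups did not overlap for 5, which were Slc25a51 and Tiparp, higher in RA, and Pnp, Sirt6 and Parp3, lower in RA (the last 4 named after their values were seen). That is near the 12.6% of all tested genes that did not overlap.

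The highest log2 fold change was that of Slc25a51 (ENSMUSG00000045973, chromosome 4, 45395923 to 45408766, minus strand), which encodes the carrier that brings NAD into mitochondria. It stood at 67.5, 70.8 and 70.5 CPM in DMSO and at 132, 115 and 152 CPM in RA libraries. Every RA library was above every DMSO library, with means of 69.6 ± 1.81 and 133.0 ± 19.0 CPM (SD, n = 3). The log2 fold change was 0.93 (95% interval 0.62 to 1.25), and the adjusted p was 0.166 with edgeR's quasi-likelihood test, so that Slc25a51 was not called. The difference was 0.80 in set 1 and 1.14 in set 2. The call depended on the test: the adjusted p was 1.3e-06 in DESeq2, 0.000235 in edgeR's likelihood ratio test and 0.00734 in the quasi-likelihood fit that takes the library set as a covariate. Over all alternatives it ran from 1.3e-06 to 0.849. The fit with the library set called 1.54% of all genes.

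The lowest was Nmnat2, the cytosolic member of the Nmnat family known from axons. It was at 2.87, 4.52 and 1.99 CPM in DMSO and at 2.06, 1.84 and 1.43 CPM in RA libraries (log2 fold change -0.82, 95% interval -1.67 to 0.036, adjusted p = 0.795). The groups overlapped, and 21 to 85 counts stood behind these values. Without DMSO 2 the log2 fold change was -0.43, and without DMSO 3 it was -1.06.

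By role, synthesis from tryptophan was barely measurable: 2 of 9 genes passed the filter, and Ido1, the interferon-inducible first enzyme, had 0 to 2 counts and Qprt, which makes nicotinic acid mononucleotide, 1 to 9 counts per library. Of 8 genes of salvage, NADP synthesis and precursor fate, 7 were tested, 3 of them positive and 4 negative, with a median log2 fold change of -0.11 (4 and 3, with a median of 0.009, in the fit with the library set). Among enzymes that break down nucleotides outside the cell, Nt5e (CD73), which acts downstream of CD38 in making adenosine and is a stromal surface marker, had 2 to 21 counts and was not tested. Art1, Art3, Art4 and Art5, of the ecto-ADP-ribosyltransferase family, reached at most 5 counts. Enpp1, a membrane phosphodiesterase that can also split NAD (named after its values were seen), was at 28.9 ± 6.05 CPM in DMSO and 24.6 ± 3.59 CPM in RA libraries (SD, n = 3, log2 fold change -0.23, adjusted p = 0.806). Its libraries of set 1 were all below those of set 2, and the difference was 0.048 in set 1 and -0.19 in set 2.

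Of the 6 further sirtuins, all were tested, 1 was positive and 5 were negative, with a median of -0.25. Here and in the lists that follow 0 were called, where 0.0433% of all tested genes were called. The libraries of 4 of these sirtuins were apart by library set, all lower in set 1, and in the fit with the library set 2 were positive and 4 negative, with a median of -0.14. Of 14 further members of the PARP family, 5 were positive and 9 negative, with a median of -0.023 and 0 called. This balance turned in the fit with the library set, to 9 positive and 5 negative with a median of 0.080, and 7 of the 14 were apart by library set, all lower in set 1. In that fit, where 1.74% of all genes passed the adjusted p alone, Parp3 had an adjusted p of 0.0269, but its change was below the fold threshold. Of the effectors of CD38 products, which include the ADP-ribose-gated channel Trpm2, the NAADP-linked two-pore channels and the ryanodine receptors, 5 of 8 were tested and 0 called. The ryanodine receptors Ryr1 and Ryr2 reached at most 8 counts, and Ryr3 was not analysed here.

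**Figure D3:**
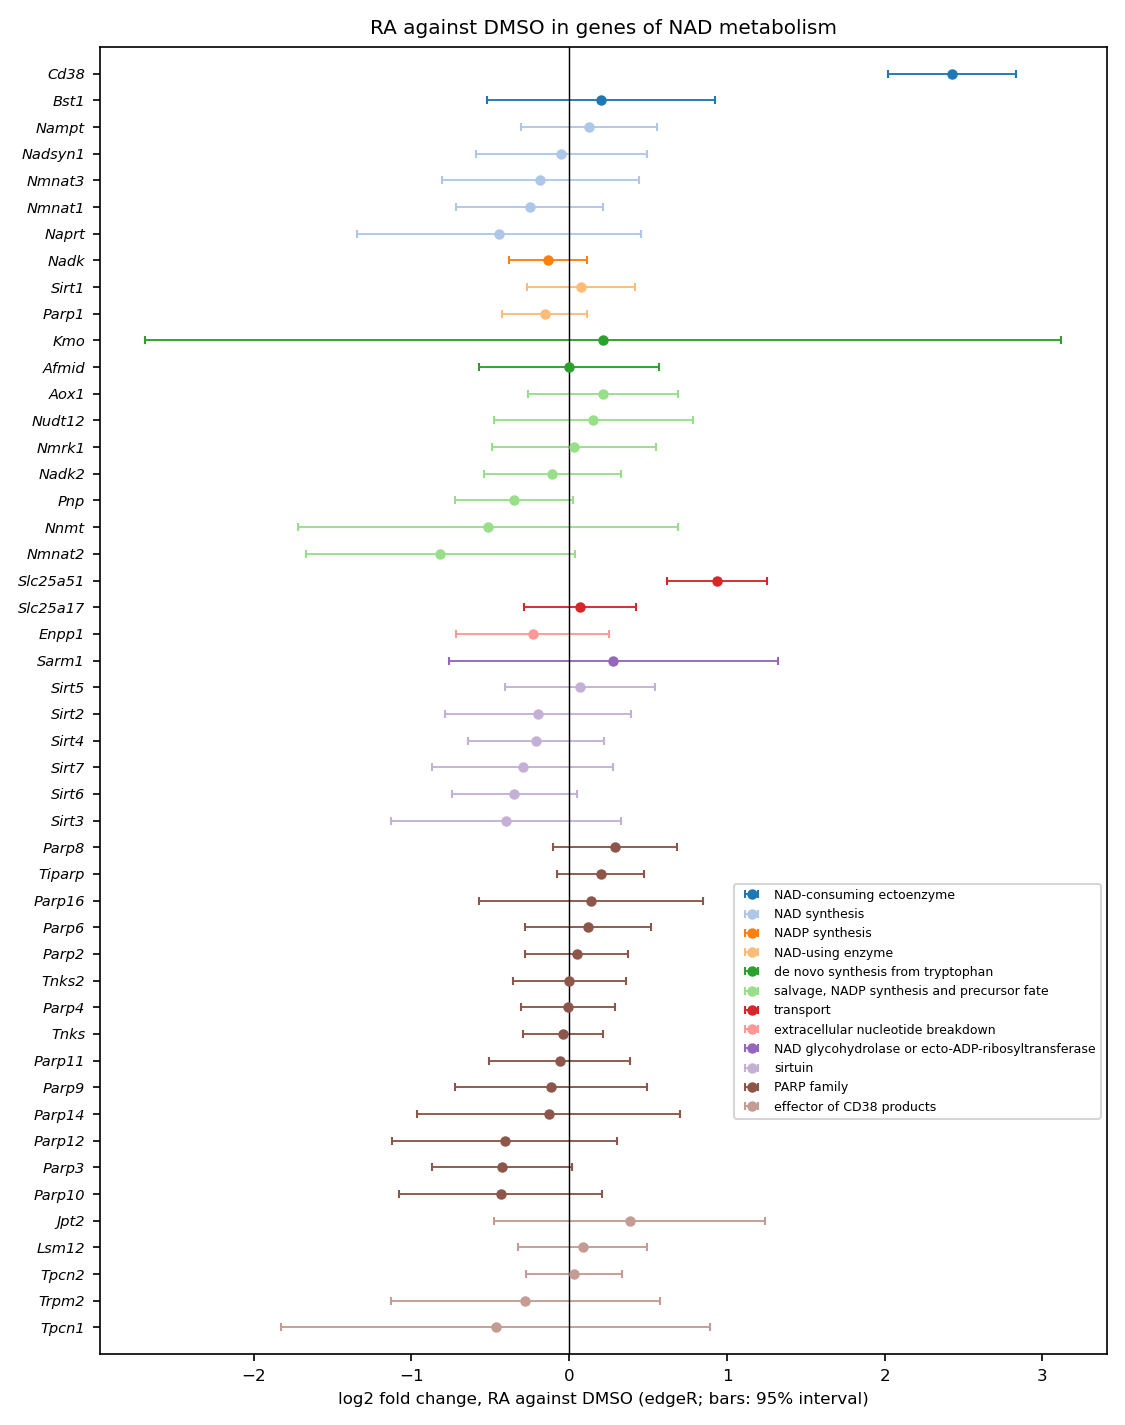
Log2 fold change of RA against DMSO (x axis) for the 10 NAD genes and the 38 other NAD genes tested (y axis), coloured by role. Points are edgeR estimates and bars their 95% intervals. Cd38, chosen from this difference, stands at 2.43, and the 38 other NAD genes run from -0.82 (Nmnat2) to 0.93 (Slc25a51).

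The library sets also parted many of the pathway genes. For 20 of the 38 other NAD genes the 3 libraries of set 1 did not overlap with the 3 of set 2, 17 of them lower in set 1, while 5 of 38 did not overlap between RA and DMSO. Over all tested genes, 47.7% were apart between the sets, 24.4% were lower in set 1, and 12.6% were apart between RA and DMSO. The sets were found from these same counts, so this is a description. An example, named after its values were seen, is Tpcn1, a two-pore channel, which was at 306 and 278 CPM in DMSO 1 and DMSO 3 and at 288 CPM in RA 3, but at 95.6, 90.8 and 114 CPM in DMSO 2, RA 1 and RA 2. Of the 10 NAD genes, Naprt (lower in set 1) and Sirt1 (higher in set 1) were apart between the sets, Sirt1 only narrowly. Cd38 was not.

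**Figure D4:**
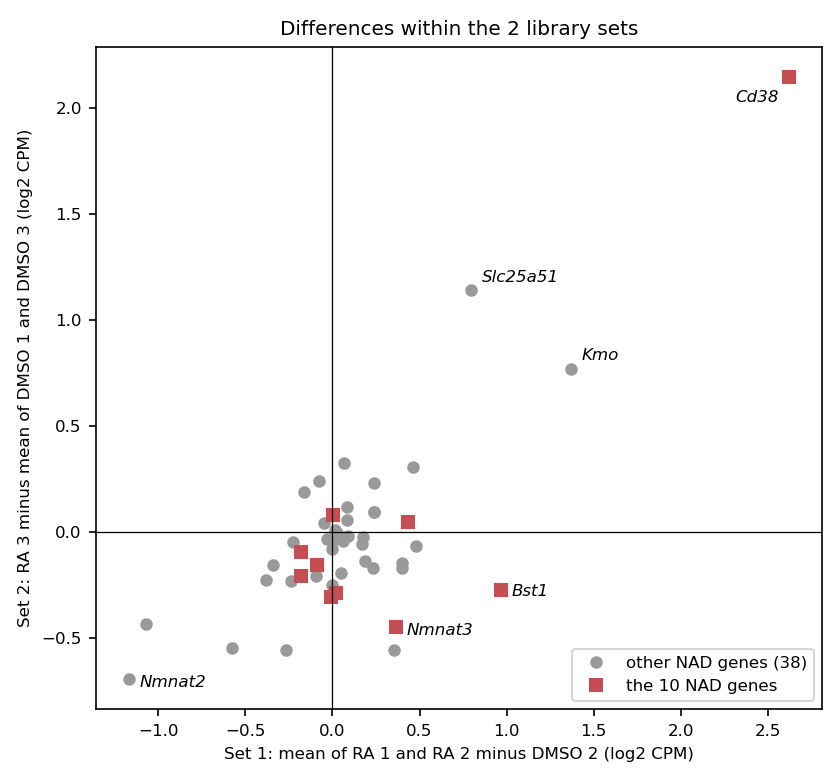
Difference between RA and DMSO in log2 CPM within library set 1 (x axis, mean of RA 1 and RA 2 minus DMSO 2) and within set 2 (y axis, RA 3 minus the mean of DMSO 1 and DMSO 3). Red squares are the 10 NAD genes and grey circles the 38 other NAD genes, and each set holds a lone library of one group. Cd38 lies at 2.62 and 2.15, Slc25a51 at 0.80 and 1.14, and Bst1 at 0.97 and -0.27. Kmo, labelled after its values were seen, had 0 to 23 counts.

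The tested genes most like Cd38 over the 6 libraries, by Pearson correlation of log2 CPM, were Pmaip1 (r = 0.9983), Slamf6 (0.9969), Piezo2 (0.9958), Snap91 (0.9946) and Ddx52 (0.9943). The 6 points are 2 groups of 3 libraries, so a high r mainly says that a gene was apart between groups with little spread. The size of the difference varied widely among them, from 12.0 ± 0.576 to 21.4 ± 0.662 CPM for Pmaip1, which encodes the apoptosis regulator NOXA, and from 4.59 ± 0.288 to 19.7 ± 1.75 CPM for Piezo2, a mechanosensitive channel. Slamf6, an immune cell receptor, and Snap91, an endocytic adaptor, were low, at 0.489 and 0.437 CPM in DMSO and 1.60 and 3.20 CPM in RA libraries. Ddx52, an RNA helicase, went from 31.1 to 35.9 CPM, a log2 fold change of 0.21. Among the other 9 of the 10 NAD genes, r with Cd38 ran from -0.942 for Nadk to 0.561 for Sirt1, with 0.421 for Bst1.

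Lastly, the genes around Cd38 were examined by position, a choice made with the values known. Within 500 kb of Cd38 the annotation held 36 genes, of which 19 were listed and 6 passed the filter. Of the 6, 0 were called, beside 0.0433% of all tested genes. Fbxl5, a ubiquitin ligase subunit that controls iron metabolism and neighbours Bst1, had a log2 fold change of 0.42 (95% interval 0.14 to 0.70, adjusted p = 0.660). Cc2d2a, a cilium gene, had 0.11 (adjusted p = 0.913) and Tapt1 0.32 (adjusted p = 0.795). The noncoding genes Gm42428 and Gm42427 had 1.36 (95% interval -0.55 to 3.27) and 0.15. Prom1 (CD133), downstream of Cd38, reached at most 4 counts. Of the genes annotated within Cd38 itself, the intronic Gm16014 had at most 1 count, and exons of the antisense gene Gm16015 do not overlap those of Cd38.

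**Figure D5:**
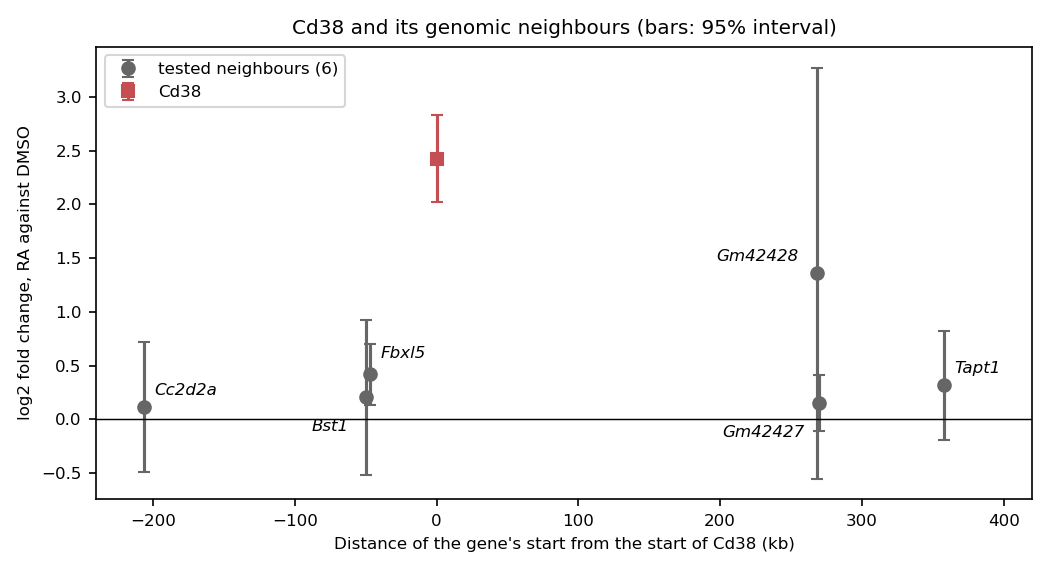
Log2 fold change of RA against DMSO (y axis) for Cd38 (red) and the 6 tested genes within 500 kb (grey), by the distance of each gene's start from the start of Cd38 (x axis, kb). Points are edgeR estimates and bars their 95% intervals. Cd38 stands at 2.43, its paralog Bst1, 49.7 kb upstream, at 0.20, and the interval of Gm42428 is the widest, from -0.55 to 3.27.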

How the data were processed

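Processed data of 6 BMSC libraries, 3 DMSO and 3 RA, were used. The authors deposited whole-number counts for each gene in a table for every library, without normalization. The submitters' processing notes name Bowtie2 2.2.3 and mm10, and the counting program, its strand setting and the annotation are not given in the sources used here. Total RNA was made into libraries with a tagmentation kit. Groups and replicate numbers came from the labels.

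Of 25722 identifiers, 25706 were found in GENCODE M21 (GRCm38), which gave positions and exon lengths. Counts were analysed in R 4.3.3 with edgeR 4.0.16 (TMM scaling, filterByExpr, quasi-likelihood F test of RA against DMSO without covariates, prior count of 2 for log2 CPM). Calls were made at a Benjamini-Hochberg adjusted p under 0.05 over 13842 genes and at least 1.5-fold. The test was tried on simulated data first. Alternatives were DESeq2 1.42.0, other scalings, filters and thresholds, the likelihood ratio test, the replicate block, the library set as a covariate, and leaving out each library. Counting error is small for genes of many counts, such as Nadk and Parp1, and covers counting only. It is larger for genes of few counts, among them Naprt (43 to 105 counts) and Nmnat1 (79 to 107 counts).

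The 10 genes and all lists were chosen with earlier results of these data known. Named were the 10 genes, the other NAD genes called, with an unadjusted p under 0.05 or highest or lowest in log2 fold change, 4 retinoid genes, the 5 genes most correlated with Cd38, and markers. Further NAD genes were named for their role or low counts, and neighbours of Cd38 and genes that overlap the 10 for their position. Others were named after their values were seen, as marked. No sequences were used.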

Additional observations from a re-analysis of the deposited data

How the results depend on the processing

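The Cd38 log2 fold change stayed within the spread between replicates under all alternatives, from 2.32 to 2.53 when a library was left out. Across all genes, the 6 calls became 136 with DESeq2, 134 with the likelihood ratio test, 213 with the library set as a covariate, 20 with no filter and 491 with an unadjusted p and the fold, and 0 to 6 when a library was left out. The share of higher calls among all calls moved too, with 98 higher and 38 lower in DESeq2, 93 and 41 in the likelihood ratio test, 103 and 110 with the library set, and 295 and 196 with an unadjusted p, beside 5 and 1. The number of the 10 genes called was 1, and 0 to 1 when a library was left out, being 0 without DMSO 1, DMSO 2, DMSO 3, RA 1 or RA 2. The number of the 10 that did not overlap between groups includes Cd38, which was chosen for this difference. It went from 3 to 1 with library size alone (12.2% of all genes). It was 3 to 7 when a library was left out, with 7 without DMSO 2. The share of all genes that did not overlap was then 15.8% to 35.4%, with 31.3% without DMSO 2 and 35.4% without RA 3. DMSO 2 is the lone DMSO library of set 1, and RA 3 the lone RA library of set 2. Of the other NAD genes 1, Slc25a51, was called with DESeq2, the likelihood ratio test, the library set and an unadjusted p with the fold, against 0. When a library was left out, the log2 fold change ran from -0.0331 to 0.473 for Bst1, from -0.00902 to 0.25 for Nampt and from -0.173 to 0.0698 for Nadsyn1, and direction turned in these 3 genes. Without DMSO 2 the log2 fold change of Bst1 became -0.0331 and that of Nampt -0.00902, and that of Nadsyn1 became 0.0261 without DMSO 3 and 0.0698 without RA 3. The median of the 10 genes was -0.102 to -0.00581 and that of the other NAD genes -0.119 to 0.0056 when a library was left out. The cause was not tested.

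With the replicate number as a block, the number of the 10 genes called was 0 and that of all genes 4. Centred on the mean of each group, libraries that carry the same number correlated at -0.51, 0.343 and 0.572, and not every library correlated best with its own number, so the samples were taken to share only a number.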
